A study of Mus musculus with 24 samples.

Results

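Keratin-associated proteins (KAPs, Krtap genes) are the matrix in which the keratin filaments of the hair shaft are embedded. They are made late in the differentiation of hair cortex and cuticle cells, after the hair keratins, and bonds between their cysteines harden the fiber. They fall into high glycine-tyrosine, high sulfur and ultrahigh sulfur classes by amino acid content, and their small genes lie in clusters of close copies. They are not known as genes of mammary epithelium. The probes described here were every non-control probe on the array whose gene name begins with Krtap followed by a digit, 65 of 39429 probes, for 51 genes.

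The arrays compared mammary tumors of female BALB/c mice, all given the carcinogen DMBA by mouth and harvested at a set size, each tumor hybridized against Universal Mouse Reference RNA from 11 mouse cell lines. Mice ate a low-fat diet (LFD, 5 tumors, all Late) or a high-fat diet (HFD, 3 Early and 6 Late tumors) throughout, were switched as young adults from LFD to HFD (LFD-HFD, 4 Late tumors), or from HFD to LFD (HFD-LFD, 3 Early and 3 Late tumors). Early and Late are the labels for tumor onset, which the study set by the weeks from DMBA to the tumor. No labels tied tumors to separate mice, so p-values measure the spread between 24 tumors, and no normal mammary gland or skin was among the samples.

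The values are log2 ratios of tumor over reference, on which 1 unit is a 2-fold change. The labels put the tumor in Cy5 and the reference in Cy3, whereas the study's methods put the reference in cyanine 5. The labels were followed: the median SD between arrays was 0.616 in Cy5 and 0.258 in Cy3, and all 38 values of the Y-linked probes for Ddx3y and Eif2s3y lay below 0. With the dyes the other way, each sign below would turn.

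By chromosome, 28 probes of 21 genes mapped to chromosome 16, 21 probes of 20 genes to chromosome 11, 10 probes of 5 Krtap5 genes to chromosome 7, 3 probes to chromosome 10 and 3 to chromosome 1. Classes were assigned by family number. The 20 high glycine-tyrosine probes, all on chromosome 16, and the 22 ultrahigh sulfur and 18 high sulfur probes made up all but 5. Of the 65 probes, 43 for 35 genes passed the filter on low signal and had a value in every group: 13 high glycine-tyrosine, 10 high sulfur, 18 ultrahigh sulfur and 2 without a class. The array's names are old, and 8 genes are given under their present RefSeq symbols with the array's name beside the first use where they are described.

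Close copies limit what a probe can tell. The probes below, of high glycine-tyrosine genes with wide differences between tumors, show how alike the coding sequences are. Positions are on mm9, and capitals mark the longest run shared with the partner probe in the first 4 and each copy of the repeat GGCTATGG in the last 2.
Krtap6-1, chr16:89032140-89032199, plus strand: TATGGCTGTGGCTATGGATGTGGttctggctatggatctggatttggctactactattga
Krtap6-5 (Krtap16-8 on the array), chr16:89047852-89047911, minus strand: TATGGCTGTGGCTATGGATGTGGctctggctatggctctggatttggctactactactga
Krtap19-2 (Krtap16-1 on the array), chr16:88874321-88874380, minus strand: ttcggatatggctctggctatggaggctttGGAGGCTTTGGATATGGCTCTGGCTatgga
Krtap16-3 (Krtap16-10 on the array), chr16:88962906-88962965, minus strand: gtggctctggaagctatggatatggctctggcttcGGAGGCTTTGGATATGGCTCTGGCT
Krtap20-2, chr16:89206195-89206254, plus strand: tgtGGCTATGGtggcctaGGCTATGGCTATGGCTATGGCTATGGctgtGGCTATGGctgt
Krtap21-1 (Krtap16-7 on the array), chr16:89403912-89403971, minus strand: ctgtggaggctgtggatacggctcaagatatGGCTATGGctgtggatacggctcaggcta
The Krtap6-1 and Krtap6-5 probes were identical at 57 of 60 bases, and the Krtap19-2 and Krtap16-3 probes shared a run of 25 bases. A probe of Krtap19-5 (Krtap8-2 on the array) matched the Krtap19-4 (Krtap16-4) probe at 52 of 60 bases. Signal of such neighbors cannot be told apart with certainty, and they are not independent measurements.

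The upstream sequences of these genes shared a TATA box motif. RefSeq (GRCm38.p6) start sites with 250 bases before and 50 after were at hand for 45 of the genes. The letters TATAAA, on either strand, were in 37 of 45 (82.2%), against 13.6% of 32851 promoters of all genes. On the gene's own strand from 50 to 11 bases before the start, they were in 29 of 45 (64.4%), against 2.4% of all. CTTTGA, the core of the Lef1/Tcf motif, was in 26.7% of the member promoters against 16% of all (either strand). The last 80 bases before the start are shown for the genes called between Early and Late tumors, with TATAAA in capitals, because 5 of these 6 carry it. It begins at -30 in Krtap16-3, -35 in Krtap22-2 and -31 in Krtap1-4. In Krtap6-1 (-69) and Krtap21-1 (-61) it lies outside the window of 50 to 11 bases before the start.
Krtap6-1, chr16:89031619-89031698, plus strand: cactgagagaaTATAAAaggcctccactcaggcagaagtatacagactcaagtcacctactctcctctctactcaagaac
Krtap16-3, chr16:88962874-88962953, minus strand: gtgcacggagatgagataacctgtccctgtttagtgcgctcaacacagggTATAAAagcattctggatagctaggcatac
Krtap21-1, chr16:89403775-89403854, minus strand: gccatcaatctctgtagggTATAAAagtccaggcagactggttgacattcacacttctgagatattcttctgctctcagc
Krtap22-2, chr16:89010760-89010839, minus strand: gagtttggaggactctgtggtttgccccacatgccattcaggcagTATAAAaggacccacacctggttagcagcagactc
Krtap1-4, chr11:99583678-99583757, minus strand: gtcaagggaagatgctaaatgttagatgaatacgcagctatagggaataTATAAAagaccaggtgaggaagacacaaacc
Krtap19-2, chr16:88874270-88874349, minus strand: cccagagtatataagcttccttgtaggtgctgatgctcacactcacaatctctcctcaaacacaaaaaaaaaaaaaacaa
These matches describe the letters in the window. Binding was not measured.

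The 7 slides held 4 or fewer of these arrays, and slide and onset were nearly confounded: only 1 slide, with 3 Early and 1 Late tumor, held both. On slides 6 and 7, which held only Late tumors, 18.3 to 22.6% of the spots lay in a dimmed band and were treated as missing. This left 50 to 65 of the 65 probes usable per tumor. Of these, 48.4 to 96.9% gave a tumor signal well above background, against 66.5 to 89.1% of all probes. No spot of a KAP probe was saturated. Bulk arrays cannot tell fewer cells of a type from less RNA per cell.

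KAP expression was carried by a few tumors. The median log2 ratio over the tested probes was 2.61 in HFD-LFD Early tumor 2, 2.23 in HFD Late 4, 2.08 in HFD-LFD Late 1, 1.72 in HFD-LFD Early 1 and 1.35 in HFD Early 1. It was 0.25 in LFD Late 3, 0.14 in HFD Early 2, -0.37 in LFD Late 4 and -0.62 in HFD-LFD Early 3. In the other 15 tumors it lay between -1.65 and -0.64. Thus high medians were found among both onset labels and in 2 of the 4 diets, whereas the 4 LFD-HFD tumors lay between -1.39 and -0.89. HFD Early 3, at -1.58, was among the lowest of all tumors.

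**Figure D1:**
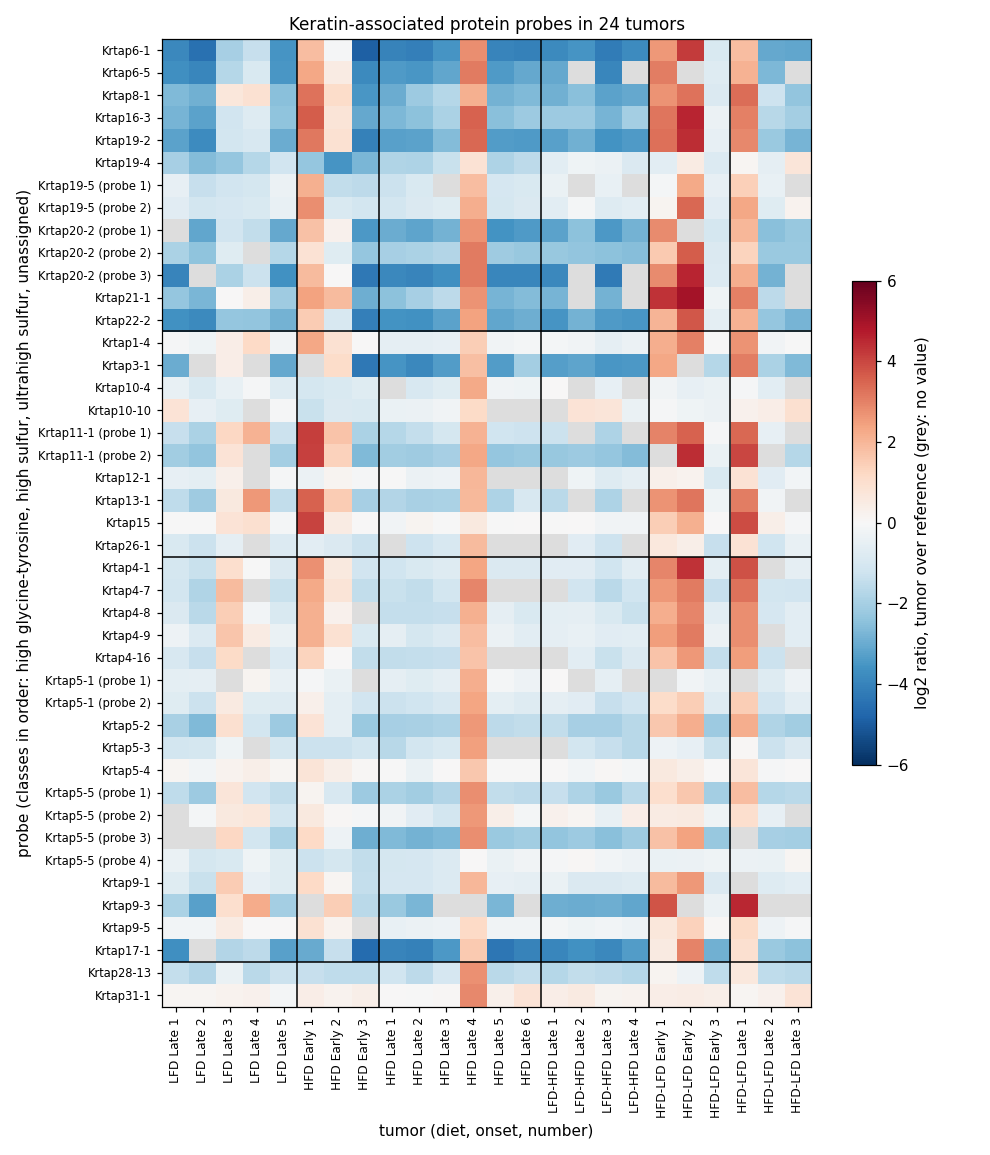
Log2 ratio of tumor over reference (color, blue below 0 and red above, grey without a value) for the 43 tested KAP probes (rows, by class) in the 24 tumors (columns, by diet and onset). The same 5 columns, HFD Early 1, HFD Late 4, HFD-LFD Early 1 and 2 and HFD-LFD Late 1, are red for most probes. HFD Early 2 and LFD Late 3 also have more values above 0 than below, with 25 of 43 and 24 of 42 above.

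The tumors with high medians did not hold the same mix of KAPs. HFD-LFD Early 2 had the highest value of all tumors for 18 of the 43 tested probes, 10 on chromosome 16 and 8 on chromosome 11. HFD Late 4 had the highest value for 16, of which 12 were among the 13 tested probes on chromosomes 1, 7 and 10. Krtap28-13 on chromosome 1 read 2.76 in HFD Late 4 and -1.75 to 0.61 in the other tumors, and Krtap31-1 on chromosome 11 read 2.86 there and -0.11 to 0.81 elsewhere. Krtap31-2, which did not pass the filter, read 3.49 in HFD Late 4. HFD Early 1 had the highest value for 3 probes, all of high sulfur genes on chromosome 16: a Krtap11-1 probe (4.16), Krtap15 (4.06) and Krtap13-1 (3.53). Krtap17-1, on chromosome 11, read -3.01 in the same tumor and 2.99 in HFD-LFD Early 2.

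The order of the tumors differed between the classes. Each ratio depends on the reference's own signal on that probe, so levels are compared between tumors within a class. The high glycine-tyrosine median was highest in HFD-LFD Early 2 (3.71), followed by HFD-LFD Early 1 (2.69). The high sulfur median was highest in HFD-LFD Late 1 (2.88), followed by HFD Early 1 (2.30). The ultrahigh sulfur median was highest in HFD Late 4 (2.19), followed by HFD-LFD Early 2 (2.16), and HFD Early 1, at 0.81, lay below LFD Late 3, at 0.95. These medians cover only probes with a value, 15 ultrahigh sulfur probes in HFD-LFD Late 1 and 17 in HFD Late 4. By median deviation from each probe's own median over tumors, HFD-LFD Late 1 led (3.36), then HFD-LFD Early 2 (3.34) and HFD Late 4 (2.74). By that measure HFD-LFD Late 1 also led for high sulfur (3.33), and HFD-LFD Early 2 for high glycine-tyrosine probes (6.56). In the 15 tumors with the lowest KAP medians, the class medians lay between -3.46 and -2.21 for high glycine-tyrosine, between -1.28 and -0.17 for high sulfur and between -1.47 and -0.54 for ultrahigh sulfur probes.

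**Figure D2:**
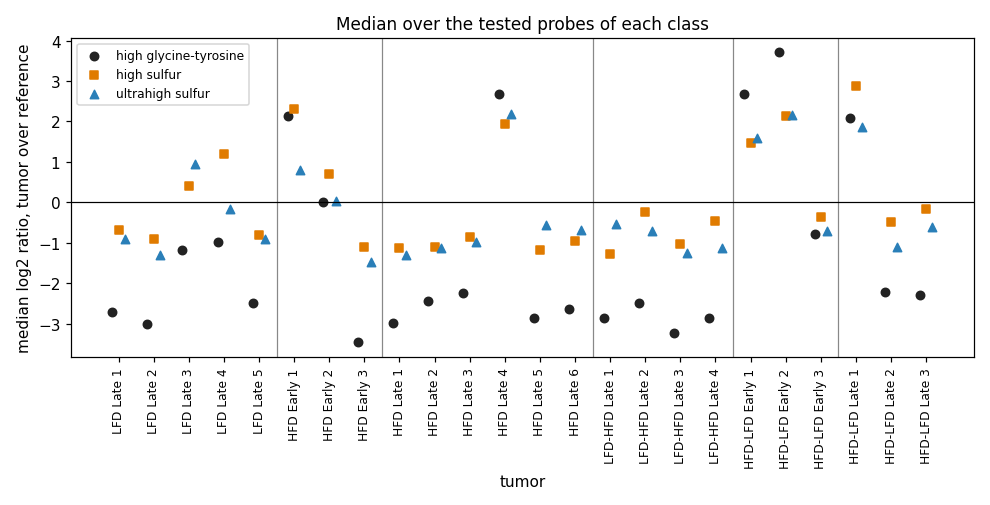
Median log2 ratio of tumor over reference over the tested probes of the high glycine-tyrosine (circles), high sulfur (squares) and ultrahigh sulfur (triangles) classes in each of the 24 tumors. High glycine-tyrosine medians span -3.46 in HFD Early 3 to 3.71 in HFD-LFD Early 2. Over the probes with a value in each tumor, the tumor with the highest median ratio differs between the classes.

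Early tumors were compared with Late tumors over all diets (6 against 18). Of the 43 tested KAP probes, 6 were called by limma at an adjusted p under 0.05 (14%), all higher in Early tumors, where 15.4% of all 26973 tested probes were called, 6.46% higher and 8.93% lower. The share called was thus near that of all probes. Slide and onset were nearly confounded, and with slide as a random or a fixed block 0 of the 43 were called (1749 and 133 of all 26973 probes), which holds for each of the 6 calls and adjusted p values below. The signed differences of the KAP probes had a median of 1.28 on the log2 scale, and 35 of 43 were above 0. For all probes the median was -0.04, a balance of higher and lower probes that does not measure size. Most of the 43 probes followed one another over the same few tumors, so they are not independent measurements. At an unadjusted p under 0.05, 20 KAP probes were higher and 1 lower (all probes: 32% in all, 13.5% higher and 18.5% lower). The groups overlapped for each of the 43, and 0.816% of all probes did not overlap.

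Of the 13 high glycine-tyrosine probes, 5 were higher in Early tumors, and the median difference was 2.58. These are small proteins in which glycine and tyrosine, not cysteine, are the main residues. Krtap19-2 ranged from -4.06 to 4.44 with a median of 2.04 in the 6 Early tumors, and from -3.76 to 3.44 with a median of -3.09 in the 18 Late tumors. Its Early mean was 1.22 ± 3.14 (SD) and its Late mean -2.20 ± 2.10, a difference of 3.42 ± 1.05 (SE; limma adjusted p = 0.0309). In HFD Early tumors 1 to 3 it read 3.17, 0.91 and -4.06, and in HFD-LFD Early tumors 1 to 3 it read 3.32, 4.44 and -0.47. Only 2 Late tumors, HFD Late 4 at 3.44 and HFD-LFD Late 1 at 2.87, were above 0. The Early group therefore held both the highest and the lowest value of all tumors.

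Krtap16-3, whose probe shares 25 bases with that of Krtap19-2, had an Early median of 1.99 (-3.09 to 4.58) and a Late median of -2.19 (-3.20 to 3.54). The difference was 3.04 ± 0.95 (SE; limma adjusted p = 0.0334). Krtap6-1 had an Early median of 0.89 (-4.92 to 4.21) and a Late median of -3.67 (-4.47 to 2.80), and its difference was 3.33 ± 1.05 (limma adjusted p = 0.034). As with Krtap19-2, the lowest value of either gene over the Early tumors was that of HFD Early 3. A second Krtap6-1 probe, below the filter, followed the first with r = 0.91 over 24 tumors.

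Krtap22-2 had an Early median of 0.47 (-4.09 to 3.71) and a Late median of -3.03 (-3.83 to 2.42), and differed by 2.80 ± 0.91 (limma adjusted p = 0.0391). Krtap21-1, measured in 6 Early and 15 Late tumors, had medians of 2.16 (-2.91 to 5.01) and -2.15 (-2.84 to 3.04), and differed by 3.06 ± 1.02 (limma adjusted p = 0.0458). It was the only one of the 5 high glycine-tyrosine genes with values above 0 in LFD tumors, 0.03 and 0.36 in LFD Late 3 and 4. Among the high glycine-tyrosine probes that did not pass, Krtap8-1 differed by 2.58 ± 0.96 (limma adjusted p = 0.0683) and Krtap6-5 by 2.56 ± 1.11 (limma adjusted p = 0.116). Krtap19-4 stood apart, with a difference of -0.54 ± 0.51 (limma adjusted p = 0.486).

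**Figure D3:**
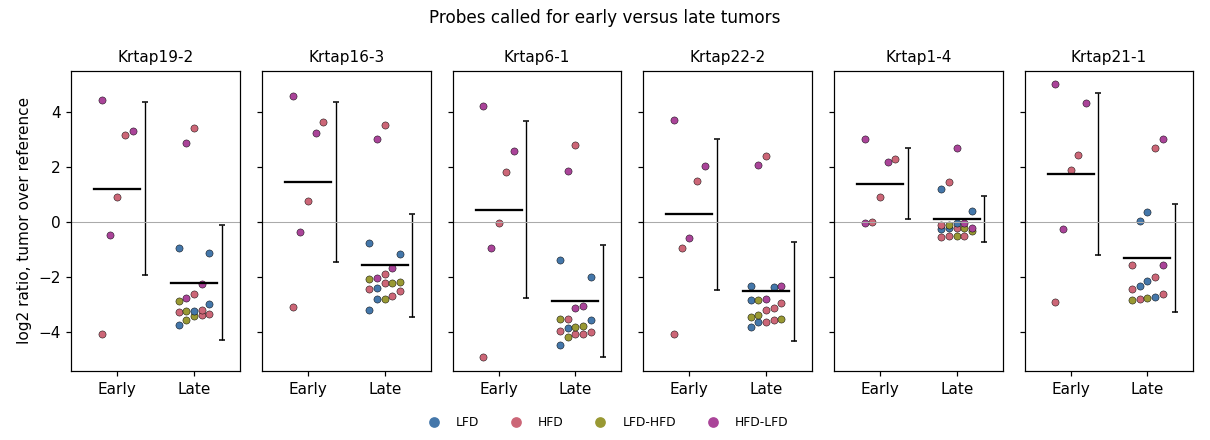
Log2 ratio of tumor over reference of the 6 KAP probes called between Early and Late tumors, 1 point per tumor colored by diet, with the mean (line) and SD (bar to the right). Early points spread over the whole range, and HFD Late 4 and HFD-LFD Late 1 lie among the high Early points on most panels.

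Of the 10 high sulfur probes, 1 was higher in Early tumors. Krtap1-4, of the chromosome 11 cluster, had an Early median of 1.54 (-0.03 to 3.03) and a Late median of -0.21 (-0.53 to 2.68), and differed by 1.29 ± 0.43 (limma adjusted p = 0.0444). Krtap11-1 differed by 2.69 ± 1.06 on one probe (limma adjusted p = 0.0837) and 2.13 ± 0.86 on the other (limma adjusted p = 0.0919). Krtap13-1 differed by 2.04 ± 0.86 (limma adjusted p = 0.107). Krtap10-10, on chromosome 10, lay on the other side of 0 at -0.80 ± 0.28 (limma adjusted p = 0.0539). The high sulfur median was 1.17.

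Of the 18 ultrahigh sulfur probes, 0 were called in either direction, and their median difference was 1. Krtap4-8, of a family rich in cysteine repeats, came nearest at 1.81 ± 0.62 (limma adjusted p = 0.05). It was measured in 5 Early tumors and had no value in HFD Early 3. In that tumor Krtap4-1, Krtap4-7 and Krtap4-9 read -1.17, -1.5 and -0.93. Krtap9-3 had one of the largest spreads of all KAP probes, an SD of 2.56 over tumors. It was measured in only 4 Early tumors (-1.6 to 3.75, median 0.57) and 13 Late tumors (-3.26 to 4.52, median -2.73), and differed by 2.29 ± 1.28 (limma adjusted p = 0.225). The spots missing from it include those of HFD Early 1, HFD-LFD Early 2 and HFD Late 4, 3 of the tumors with high KAP medians. With spots that carry an outlier flag kept, a setting chosen after seeing the data, 11 of 44 KAP probes were called, all higher (16.5% of all probes).

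**Figure D4:**
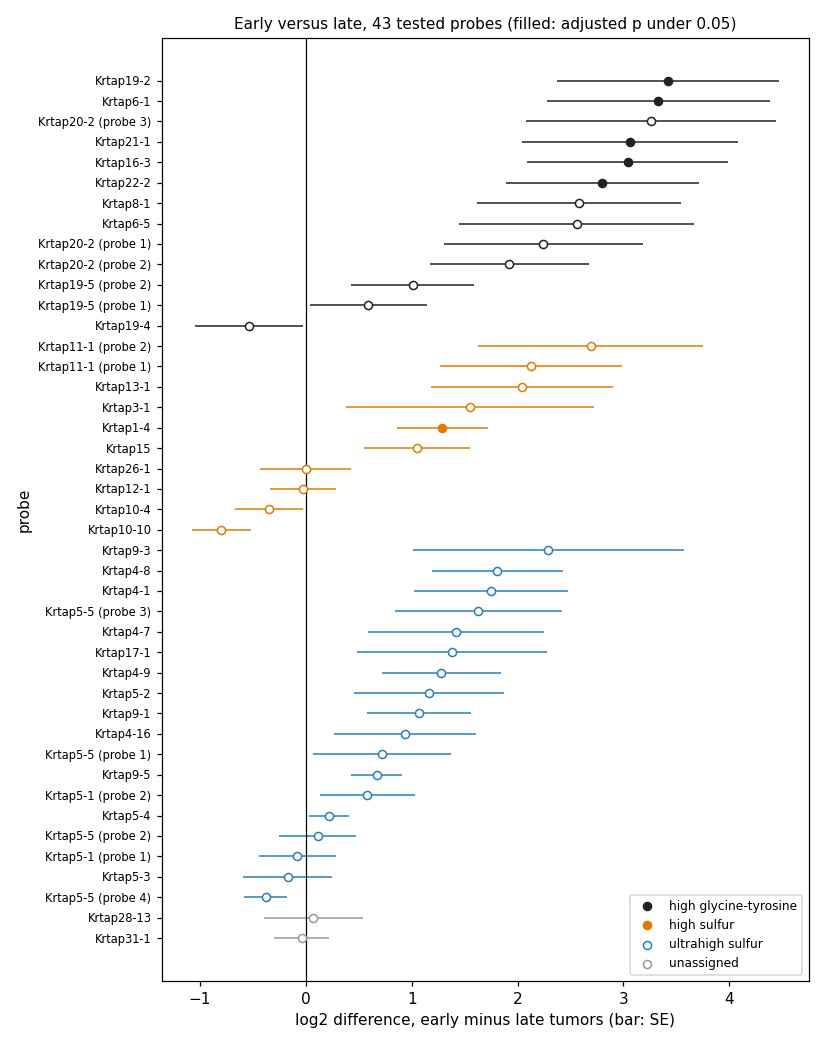
Difference in log2 ratio between Early and Late tumors (points, bars are SE) for the 43 tested KAP probes, by class, with probes called at an adjusted p under 0.05 filled. The 5 filled high glycine-tyrosine points lie between 2.80 and 3.42, the filled high sulfur point is Krtap1-4 at 1.29, and the probes of Krtap10-10 and Krtap19-4 lie farthest below 0.

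The number of calls changed when single tumors or the slides were left out. The number called was 0 without HFD Early 1 (11.6% of all probes), without HFD Early 2 (8.2%) or without HFD-LFD Early 2 (14.2%), and 1, a lower one, without HFD-LFD Early 1 (12.2%). It was 3 without LFD Late 1, LFD Late 5, LFD-HFD Late 1, LFD-HFD Late 3 or HFD Late 2 in turn (13.3 to 14% of all probes). It was 10 (9 higher) without LFD Late 3 (19.2% of all probes), 15 without HFD Late 4 (16.7%), 15 without HFD Early 3 (10%), and 17 without HFD-LFD Late 1 (14.7%). Without the arrays of slides 6 and 7 none was called, where 17.2% of all probes were. With slide as a random block the median KAP difference was 1.38, and with slide as a fixed block it was 2.40 with 41 of 43 above 0. The fixed-block difference rests on the only slide that held both onsets. There HFD-LFD Early 1, 2 and 3 stood against LFD-HFD Late 3 alone (KAP median -1.39), so diet and onset were mixed. With scan session as a block the 6 differences were 1.08 to 2.63 and 1 probe, not one of the 6, was called, where 23.6% of all probes were. Within scan session 1 (3 Early and 8 Late tumors) none of the 43 was called, 30 differences were above 0 and the median was 0.53. Within session 2 (3 Early and 3 Late tumors) 39 were above 0, the median was 1.01, and 1 was called, Krtap10-10 at -0.70 (limma adjusted p = 0.0423). The third session held no Early tumor. Each of the 6 called genes was higher in Early tumors in every setting run for this comparison. Under median centring in place of loess 17 were called (23.9% of all probes), all higher, and the all-probe median moved from -0.04 to 0.22 while the KAP median moved to 1.81; among all called probes, the share that was higher moved from 42% to 83.5%. With the tumor channel alone 9 were called, 8 higher and 1 lower (12.1% of all probes).

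Diet was compared between HFD and LFD tumors (9 against 5), and no KAP probe passed the test: 0 of 43 were called by limma and 0 had an unadjusted p under 0.05, against 0% and 4.63% of all probes (1.87% higher and 2.77% lower). The median difference was 0.24, with no settled direction: it was -0.05 without HFD Late 4, 0.55 without LFD Late 3 and -0.55 with slide as a fixed block. The fixed-block value rests on LFD Late 4 against HFD Late 5 and 6, on the only slide that held both diets. The highest difference was that of Krtap16-3 at 1.31 ± 1.16 and the lowest that of Krtap9-3 at -0.77 ± 1.14 (limma adjusted p = 0.969 and 0.972). For probes with standard errors near 1, such as these, a several-fold difference between the diets was not detectable with these tumors. Among the 6 HFD Late tumors, the high glycine-tyrosine median was 2.68 in HFD Late 4 and -2.99 to -2.25 in the other five.

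Among tumors of the HFD diet, Early (3) against Late (6), 2 of 43 probes were called, both lower in Early tumors, where 12.3% of all probes were called, 6.13% higher and 6.12% lower. Neither followed the other KAP probes: r with the median of the others over the tumors was 0.36 for Krtap19-4 and 0.10 for the called Krtap5-5 probe. Krtap19-4, a high glycine-tyrosine gene, read -2.34, -3.56 and -2.74 in the Early tumors. In the HFD Late tumors it read from -1.86 to 0.88, with a median of -1.67. The groups did not overlap, and the difference was -1.63 ± 0.49 (limma adjusted p = 0.0345). The Krtap5-5 probe read -1.31, -1.07 and -1.48 in Early and -1.07 to 0.00, with a median of -0.60, in Late tumors, and differed by -0.70 ± 0.22 (limma adjusted p = 0.0417). It is 1 of 4 Krtap5-5 probes on the array, at chr7:149415808-149415867, and followed the other probes of that gene with r of only 0.02 to 0.34, whereas another pair of these probes reached 0.97. Of the 43, 4 did not overlap between the groups, where 20.5% of all probes did not.

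In the 6 genes called over all diets, the HFD differences were 1.14 to 2.07 and none passed, with Krtap19-2 at 2.07 ± 1.58 (limma adjusted p = 0.409). Neither HFD call held under each setting. None was called with slide as a random block, under median centring, with the tumor channel alone, without the arrays of slides 6 and 7, or without any 1 of the 3 HFD Early tumors. In turn without HFD-LFD Early 1, 2 or 3 or without HFD Late 4, 5 or 6, Krtap19-4 was the 1 probe called, and without HFD Late 3 it was the Krtap5-5 probe.

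Among HFD-LFD tumors, 3 Early against 3 Late, 0 of 43 were called by limma and 0 had an unadjusted p under 0.05, against 0.816% and 14.6% of all probes (at the unadjusted p, 6.83% higher and 7.79% lower). The median difference was 0.67 over the 43, 2.29 for high glycine-tyrosine, 0.29 for high sulfur and 0.62 for ultrahigh sulfur probes. The median over the 43 was 0.02 without HFD-LFD Late 2, 0.09 without HFD-LFD Early 2, 0.27 without HFD-LFD Early 1, 0.34 without HFD-LFD Late 3, 1.76 without HFD-LFD Early 3 and 2.19 without HFD-LFD Late 1. Krtap6-1 differed by 3.40 ± 1.79 (limma adjusted p = 0.392) and Krtap19-2 by 3.15 ± 1.83 (limma adjusted p = 0.445). Krtap6-1 read 2.60, 4.21 and -0.93 in Early and 1.87, -3.07 and -3.12 in Late tumors, so that 1 tumor of each group lay among the values of the other. The groups did not overlap for 2 of the 43, where 35.9% of all probes did not.

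The Early-Late difference was not shown to depend on the diet. In the test of the difference between the HFD and HFD-LFD contrasts, 0 of 43 passed (0.0111% of all probes), and 1 had an unadjusted p under 0.05 (8.3% of all probes, 4.56% higher and 3.74% lower). This was Krtap9-3, at 5.34 ± 2.43 (limma adjusted p = 0.6). Of the HFD-LFD tumors it had a value only in Early 1 (3.75), Early 3 (-0.36) and Late 1 (4.52). Over the Late tumors of the 4 diets, 0 of 43 were called by the moderated F test, against 1.85% of all probes, and 3 had an unadjusted p under 0.05 (19.4% of all probes). These were Krtap19-4 (limma adjusted p = 0.0752), Krtap9-3 (adjusted p = 0.0969) and the same Krtap5-5 probe (adjusted p = 0.221). The Late means of Krtap19-4 spanned 2.06 between diets, from -1.95 in LFD tumors (-2.61 to -1.16) through -1.25 in HFD (-1.86 to 0.88) and -0.52 in LFD-HFD (-0.85 to -0.24) to 0.11 in HFD-LFD tumors (-0.54 to 0.74). Diet was partly confounded with scan session here. Every LFD-HFD and HFD-LFD Late tumor was scanned in session 2 or 3, and most LFD and HFD Late tumors in session 1.

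Some probes of one gene moved together and others did not. On chromosome 7 the r over tumors was 0.78 for the Krtap5-2 pair, 0.81 for the Krtap5-1 pair and 0.02 to 0.97 among the Krtap5-5 probes. The r over tumors was 0.96 to 0.99 among 3 Krtap20-2 probes, 0.99 between the 2 Krtap11-1 probes and 0.97 between those of Krtap19-5. The middle one of the 3 Krtap20-2 probes overlaps the others in position and shares runs of 20 and 25 bases with them. Their r is therefore not that of separate sequences. Krtap20-2 held the largest spread of any KAP probe, an SD of 2.96, from -4.27 to 4.58, with a difference between Early and Late of 3.26 ± 1.18 (limma adjusted p = 0.0641). Another Krtap20-2 probe, 3′ of the others, was nearly flat, with an SD of 0.18, and r of 0.03 to 0.38 with them. It did not pass the filter.

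In 9 probes the tumor channel was well above background in each of the 24 tumors. These included Krtap19-2, Krtap16-3, Krtap6-1 and Krtap8-1, so that even the lowest tumors gave a signal on them. Krtap8-1 ranged from -3.50 to 3.35, and was above 0 in LFD Late 3 (0.67) and LFD Late 4 (0.90). The others were Krtap19-4, a Krtap19-5 probe (-1.11 to 3.44), and 3 Krtap5 probes of chromosome 7. Krtap5-2 ranged from -2.64 in LFD Late 2 to 2.60 in HFD Late 4, and Krtap5-1 from -1.38 in LFD-HFD Late 3 to 2.35 in HFD Late 4. The remaining one was the Krtap5-5 probe called in HFD tumors, which ranged only from -1.48 to 0.13.

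Of the 22 probes not tested, several were bright only in the same few tumors. Krtap14 read 5.80 in HFD Early 1 and 5.26 in HFD-LFD Late 1, and Krtap6-2 read 5.03 in HFD-LFD Early 2 and 4.27 in HFD-LFD Early 1. Krtap1-5 read 4.96 in HFD-LFD Early 2 and 4.71 in HFD Early 1. The probe named Krtap13 differed in its pattern, with 3.10 in LFD Late 4 and 3.18 in HFD Late 4 but 0.17 in HFD Early 1. A filter that asks for signal in most tumors removes genes of this kind, and no test is given for them.

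The genes that followed the KAP median most closely were their neighbors. Over 18451 other genes with at least 20 tumors, the 10 with the highest Pearson r all lay within the stretches of chromosome that the KAP probes span, which hold 0.19% of the genes compared. These points share the tumors, the arrays and the loess fit. Members were chosen by gene name alone, so unnamed close copies of KAP genes may be among these 10. Their probe sequences were not compared with those of the members. An unnamed one on chromosome 16 read 1.91 in HFD Early 1 and 4.56 in HFD-LFD Early 2. A Krtap20-2 probe read 1.91 and 4.58 in these tumors. Gm11559 on chromosome 11 (r = 0.979), Gm2683 on chromosome 16 (0.978), Gm11595 (0.969), Gm2724 (0.968), Gm10229 (0.963) and Gm2692 (0.963) were the named ones. Krt33a, a hair keratin of chromosome 11 outside those stretches, followed with r = 0.962.

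Hair keratins read high in the tumors with the highest KAP medians. Hair keratins form the filaments that KAPs bind. Their median log2 ratio was 2.76 in HFD Early 1, 2.70 in HFD-LFD Late 1, 2.04 in HFD-LFD Early 1, 1.5 in HFD-LFD Early 2 and 1.47 in HFD Late 4, and -3.21 in HFD Early 3. LFD Late 4, with a KAP median of -0.37 over 34 probes, had a hair keratin median of 1.86 over 9 of the 13 tested genes. Its median KAP deviation from each probe's own median over tumors was 0.65. The missing spots limit this contrast. None of 13 tested hair keratins was called between Early and Late tumors, and their median difference was 1.6. Krt87 differed by 1.86 ± 0.66 (limma adjusted p = 0.0564) and Krt33b by 3.13 ± 1.15 (limma adjusted p = 0.0675). Krt82 was at only 0.30. Krt85 alone lay below 0, at -0.23, and did not follow the KAP median (r = -0.17).

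Of 8 tested genes of the inner root sheath, which molds the growing shaft, Krt72 was higher in Early tumors by 1.58 ± 0.54 and Krt74 lower by 0.24 on the log2 scale (-0.24 ± 0.08, limma adjusted p = 0.0485), with a list median of 1.42. Of all probes, 6.46% were called higher and 8.93% lower. Calls of list genes, here and below, were not followed with slide as a block. There the calls over all probes fell from 4151 to 1749 (random block) and 133 (fixed block). Of 7 regulators of hair differentiation 2 were higher: Foxq1, needed for the hair medulla, by 2.73 ± 0.72 (limma adjusted p = 0.0144), and Foxn1, the gene of the nude mutation, by 1.01 ± 0.31 (limma adjusted p = 0.0324). Dlx3, Lef1 and Msx1 were at 0.70, 0.82 and 0.46, and Hoxc13 and Msx2 at -0.15 and -0.21, none of which passed. Their list median was 0.70. Of 7 other hair shaft genes, Psors1c2 was higher by 2.70 ± 0.82 (limma adjusted p = 0.0289), whereas S100a3, a hair cuticle protein, differed by 1.63 ± 0.67 (limma adjusted p = 0.0973). Of the others, which did not pass, Gprc5d and Vsig8 were at 1.40 and 0.91, and Tgm3, Padi3 and Padi1 at -0.32, -0.40 and -0.14. The list median was 0.91, beside -0.04 for all probes. By tumor, these lists did not always follow the KAP medians. HFD-LFD Late 3, with a KAP median of -0.64, had medians of 0.72 for inner root sheath and 1.05 for other hair shaft genes. HFD Early 1 had an inner root sheath median of -0.53, below LFD Late 3 at 0.76.

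Markers of other cells that mammary tissue or skin could hold were read beside these. None of 13 tested epidermal squamous genes was called, with a median of 1.30 and Lor and Sprr1a nearest (adjusted p = 0.0675 and 0.0777 by limma). The summed tumor-channel signal of 8 of them, in units of scanner brightness, ranged from 20792 to 145816 over the Early tumors and from 9499 to 1102968 over the Late tumors of slides 1 to 5. HFD Late 4 had a squamous median of 2.63 and a sebaceous gland median of 2.73, whereas HFD-LFD Early 1 had a squamous median of 0.28. HFD-LFD Early 2 had -0.77 and 0.05, HFD Early 1 had -1.71 and -0.31, and HFD-LFD Late 1 had -0.95 and -0.35. Of the 15 tumors with the lowest KAP medians, 13 had squamous medians of -4.06 to -1.95, below those of all 5 tumors with KAP medians above 1. The others were HFD Early 3 at 1 and HFD-LFD Late 3 at 1.38, the latter over 9 of the 13 genes. None of 4 sebaceous genes was called (Awat1 at -0.82 and Elovl3 at -0.42), and their summed signal was 743 to 1330 in Early and 879 to 26395 in Late tumors.

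Of 7 tested luminal markers 3 were lower in Early tumors, with a median of -1.72. For the calls in this paragraph, 6.46% of all probes were called higher and 8.93% lower, without slide in the fit. Prlr, the prolactin receptor, was at -4.24 ± 0.78 (limma adjusted p = 0.00167) and Esr1, the estrogen receptor, at -1.33 ± 0.43 (limma adjusted p = 0.0399). In the 5 tumors with KAP medians above 1, the luminal median was -3.09 in HFD Late 4, -0.36 in HFD-LFD Early 1, -0.05 in HFD-LFD Early 2, 1.86 in HFD Early 1 and 1.96 in HFD-LFD Late 1. In 12 of the 15 tumors with the lowest KAP medians it was higher, 2.04 to 3.60, and in the other three it was -0.09 (HFD Early 3), 0.63 (HFD-LFD Late 3) and 0.78 (HFD Late 6). Of 7 basal markers, with a median of -0.38, Myh11 was lower (-2.80 ± 0.70), and Acta2 was at -1.39 ± 0.50 (limma adjusted p = 0.0123 and 0.0586). The basal keratins Krt14, Krt17 and Krt5 were at 0.87, 0.76 and 0.40 and did not pass. Of 4 tested melanocyte markers Pmel and Tyr were lower, at -0.77 and -0.33, and the list's median lay below 0 in all 24 tumors. It was highest in HFD Late 4 (-0.59), as was the list's summed signal (3727) over the tumors of slides 1 to 5. Of 5 macrophage genes, with a median of 0.08, Lyz2 was higher by 0.68 ± 0.22 and the others were at -0.12 to 0.16. Of 5 fibroblast genes, with a median of -0.56, Dcn was lower (-2.45 ± 0.58), and Col1a1 and Pdgfra were at 0.46 and 0.28. None of 4 adipocyte or 5 skeletal muscle genes was called. The part of these markers in the KAP differences was not tested.

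**Figure D5:**
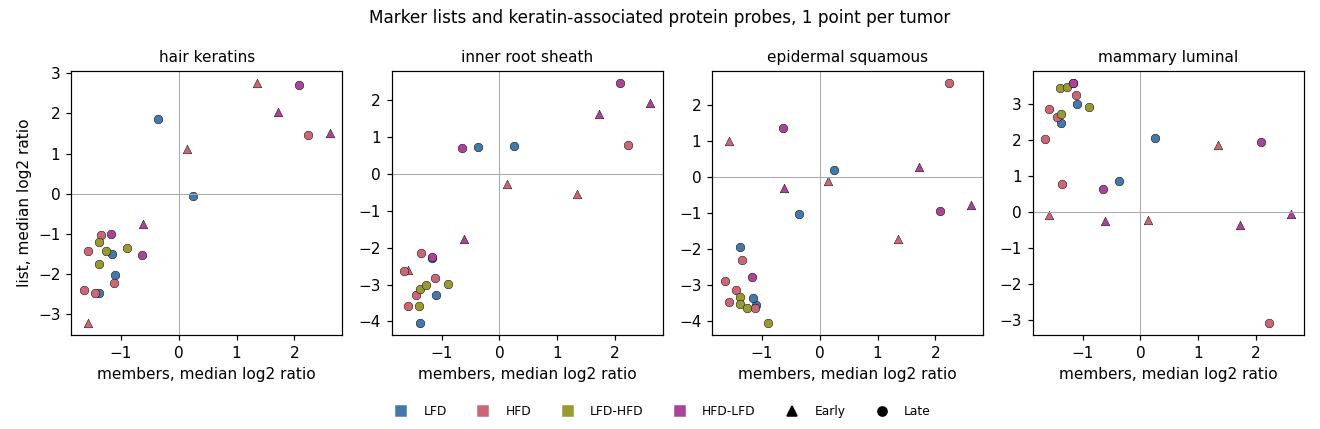
Median log2 ratio of 4 marker lists (vertical axes) against the median over the tested KAP probes (horizontal axes), 1 point per tumor, colored by diet, with triangles for Early and circles for Late. The 5 tumors with KAP medians above 1 have hair keratin medians of 1.47 to 2.76, while their epidermal squamous medians run from -1.71 to 2.63 and their luminal medians from -3.09 to 1.96.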

How the data were processed

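Total RNA of mammary tumors was hybridized on two-color Agilent 4 × 44K mouse arrays. The 24 labelled samples are used here, 6 of them Early; the study's methods and results count 1 array more, an Early one, which was not analysed here. The deposited scanner files hold, per the file headers (Feature Extraction 11.0.1.1; the submitters' processing notes name 8.5.1.1), spot and local background intensity in each channel, a log10 ratio made by the scanner software, and other columns of spot flags and names. The authors deposited these intensities without further normalization. The study's methods name a filter on intensity, loess and imputation; the first 2 were followed.

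From the mean and background intensities, background was corrected by normexp (offset 50), ratios were loess-normalized within arrays, and spots of a probe averaged (R 4.3.3, limma 3.58.1). Control and outlier-flagged spots and dimmed rows of slides 6 and 7 (bands of 10 rows more than 0.5 below the array on the log2 scale) were left out and not imputed. A probe was tested if its signal minus background exceeded 10 for tumor and reference alike on 80% or more of its usable arrays and it had a value in each of 6 groups (26973 were; 305 lacked a group), with lmFit and eBayes, Benjamini-Hochberg over all of them, adjusted p under 0.05. The 6 comparisons were Early versus Late, HFD versus LFD, Early versus Late within HFD and within HFD-LFD, the difference of those contrasts, and Late tumors by diet. Fits within HFD and HFD-LFD shared one spread over all groups. On simulated data with 200 probes shifted by 2 on the log2 scale and each probe's own spread, the Early versus Late fit recovered 96.5%, with 4.46% of calls false. The shifted probes were drawn at random from all tested probes, and the simulated noise held no slide effect. These shares therefore do not describe KAP probes of wide spread, or real arrays on which slide and onset were nearly confounded.

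Members, gene lists and tests were chosen with earlier results of these data known, and the classes, taken from family numbers because no protein sequences were used here, after the values were seen. Genes named in full are those called in any comparison, the 5 of largest SD, those well above background on all arrays, the 2 of smallest p in each list, and the 10 most like the KAP median; others named beside them were picked after seeing values. Of the 65 probes, 62 were named by accession through RefSeq, 2 by symbol and 1 by the file. Alternatives covered dimmed rows, missing values, background, normalization, filter, probes per gene, slide, scan session, array weights and each array in turn. The number of arrays limits the precision.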

Additional observations from a re-analysis of the deposited data

Results flagged for a closer look

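In 53 checks of named probes and class medians within groups of 4 to 10 tumors, 13 had 1 tumor far from the rest by Dixon's test, where chance flags about 1 in 20 groups. Of these 13, 12 were HFD Late 4, standing above the other HFD Late tumors, and since the genes move together they are not 12 separate signs. The gap to the nearest tumor, as a share of the group's range, was 0.772 for Krtap21-1, 0.869 for Krtap16-3, 0.888 for Krtap22-2, 0.796 for Krtap1-4, 0.919 for Krtap6-1, 0.886 for Krtap19-2, 0.812 for Krtap19-4 and 0.958 for Krtap20-2. It was 0.863 for the median over all tested KAP probes, 0.869 for the high glycine-tyrosine, 0.896 for the high sulfur and 0.787 for the ultrahigh sulfur median. The last was Krtap9-3, for which LFD-HFD Late 4 (-3.14) lay below the other 3 LFD-HFD tumors (-2.96 to -2.92) with a share of 0.842; the SD of this gene was 0.10 among these 4 tumors and 2.56 over all tumors.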

How the results depend on the processing

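Early versus Late, with 6 KAP probes called (15.4% of all probes), gave 3 with dimmed rows kept, 11 with values imputed from 10 neighbors, 17 under median centring, 22 with array weights (29.5% of all probes), 21 at an unadjusted p under 0.05 (32%) and, in a setting chosen after seeing the data, 11 with outlier-flagged spots kept. It gave 0 with slide as a random block, 0 with slide as a fixed block, 1 with scan session as a block, 0 without slides 6 and 7, 0 within session 1 and 1 within session 2, and 0 to 17 with each array left out. Early versus Late within HFD, with 2 called, gave 1 with dimmed rows kept, 1 with the scanner log ratio, 1 with scan session as a block, and 0 under median centring, with the tumor channel alone, with slide as a random block and without slides 6 and 7, and 0 to 2 with each array left out. The difference between diets gave 1, and Late tumors by diet 3, at an unadjusted p under 0.05. Late tumors by diet also gave 3 with array weights (22.7% of all probes) and 0 to 1 with each array left out (1 without HFD Late 4). HFD versus LFD and the comparison within HFD-LFD stayed at 0 in each setting run, as did the difference between diets with each array left out. Of the 10 probe differences followed through the settings (8 between Early and Late tumors and 2 within HFD), none turned its direction; the other named genes were not followed in this way. The slide as a fixed block could not be fitted within HFD or for the difference between diets. No paired analysis was possible because the labels give no replicate numbers. The causes of these changes were not tested, and for dim probes signal over background limits the values.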
